A study of Toxocara canis with 2 samples.

Results

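Transcripts that match eggshell proteoglycans and chitin proteins were described in adult Toxocara canis, the roundworm of dogs, from 1 whole-body library of a female worm and 1 of a male worm, both of the strain labelled Rongchang. A unigene (an assembled transcript) was a member when its best match in the Nr or Swiss-Prot protein databases, or its KEGG name, contained chondroitin proteoglycan, ovarian message, eggshell or chitin. This gave 50 members among the 21280 unigenes of the authors' annotated table and among the 70267 unigenes seen in either library. The members fell into 42 proteoglycan matches, 2 chitin synthases, 5 chitinase matches and 1 further match to an eggshell protein. Of the 42, 7 had the name ovarian message protein without a chondroitin proteoglycan match. They are counted in the proteoglycan class and its sums by that name alone. The female library held 19.8 M fragments and the male library 18.4 M. The sex labels were checked with the 3 unigenes named vitellogenin, the yolk precursor, of which 2 were higher in the female and 1 in the male library. Unigene14425 was at 14049 FPKM (fragments per kilobase, adjusted for sequencing depth) in the female and 0.286 FPKM in the male library. Unigene4105 was at 1008 FPKM in the female and 73.6 FPKM in the male library, while Unigene29177 had 0 female fragments and 68.9 FPKM in the male library. Unigenes named major sperm protein took 0.000435% of female fragments and 1.54% of male fragments.

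A nematode egg is enclosed after fertilisation by a shell that the oocyte and zygote secrete. In Caenorhabditis elegans its layers include an outer vitelline layer, a layer of chitin, and a layer of chondroitin proteoglycans beneath it. Chitin is a polymer of N-acetylglucosamine made at the cell surface by chitin synthase, and chitinases cut it. The proteoglycans CPG-1 and CPG-2 of C. elegans carry chondroitin sugar chains and also hold domains that bind chitin. An adult ascarid female carries large numbers of oocytes and eggs in its ovaries and uterus, so its whole-body RNA includes germline RNA. Whether a lower level in 1 library came from fewer cells of a type or from less RNA per cell cannot be told apart in whole-body RNA.

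Proteoglycan transcripts were far more abundant in the female worm and chitin synthase moderately so. Of the 50 members, 43 were higher in the female library and 7 in the male library. A size criterion asked for 5 FPKM or more in whichever library was higher, together with a difference of 4-fold or more after adding 1 FPKM to each value. By this criterion 37 members were higher in the female and 3 in the male library. Among all unigenes of the annotated table the same criterion called 7.84% as higher in the female and 14.8% as higher in the male library, and 44.3% were higher in the female library by any amount. Only unigenes that the authors had called different carry a name in the files, so every member had to differ and its direction alone was free. The median log2 ratio of female over male, with 1 FPKM added, was 6.82 over the 47 members whose mean reached 1 FPKM. Over all 17574 unigenes of the table with such a mean it was -1.05. The order-statistic interval among members was 5.37 to 7.28. Of the 50 members, 29 were contigs of 10 clusters and not independent, so that interval is descriptive and does not cover variation among worms. Summed over members, the level was 88168 FPKM in the female and 551 FPKM in the male library. Members took 9.65% of female fragments (Clopper-Pearson 95% interval 9.64 to 9.66%) and 0.0705% of male fragments (0.0693 to 0.0717%). With 1 library per sex no test was possible, and all intervals on counts, shares and ratios cover counting error only.

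**Figure D1:**
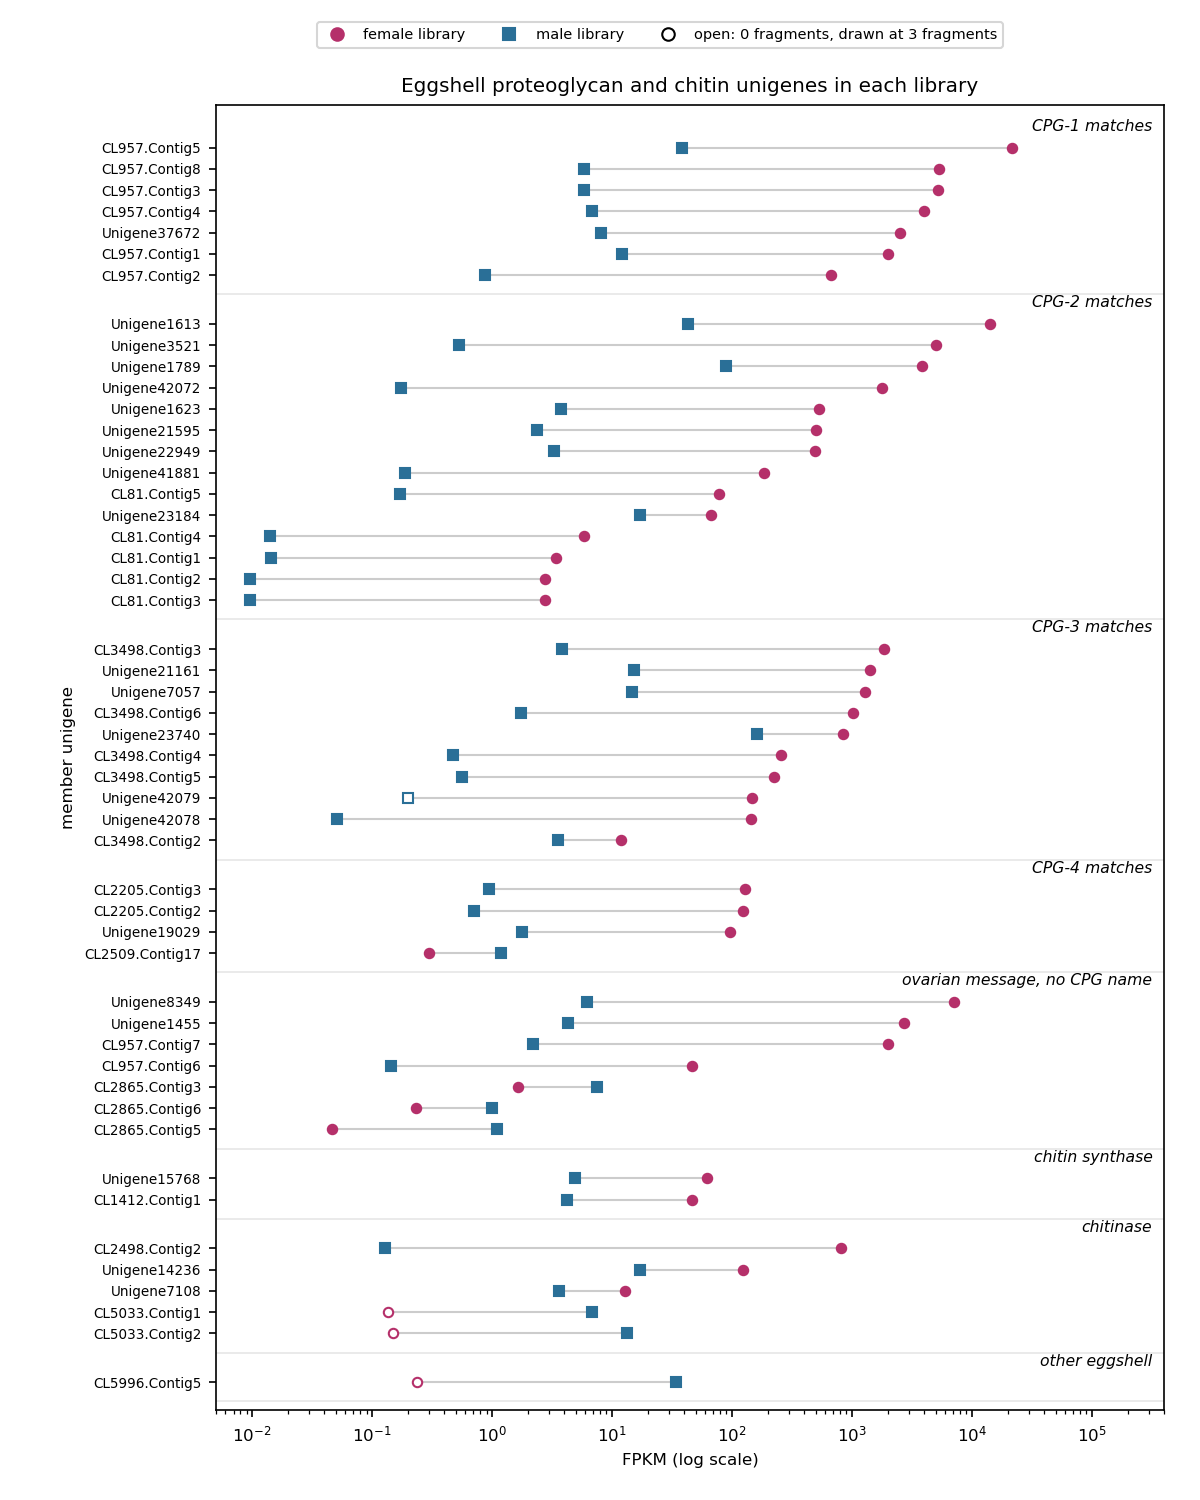
FPKM of all 50 members on a log axis, with circles for the female library and squares for the male library, grouped by protein match; open symbols had 0 fragments and are drawn at 3 fragments. The female value lies to the right for 43 members, with CL957.Contig5 at 21442 FPKM the highest, and to the left for 7.

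The matches to chondroitin proteoglycan 1 (CPG-1) formed the most abundant group, with 7 unigenes at a summed 41153 FPKM in the female and 78.0 FPKM in the male library. All 7 carry the Nr name immunosuppressive ovarian message protein, given to an Ascaris suum transcript, and 6 of them are contigs of 1 cluster of related sequence, CL957. CL957.Contig5 stood at 21442 FPKM in the female library, the first rank of all its unigenes, and at 38.3 FPKM in the male library, rank 2411. CL957.Contig8 was at 5283 FPKM in the female and 5.88 FPKM in the male library, and CL957.Contig3 at 5244 FPKM in the female and 5.80 FPKM in the male library. CL957.Contig4 was at 4003 FPKM in the female and 6.87 FPKM in the male library. These contigs share their source, so they may not be separate genes, and reads of near-identical contigs could have been split between them.

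Within cluster CL957 the size of the sex difference was not uniform. CL957.Contig3 had a female share of fragments 904 times the male share (95% interval 741 to 1115), and CL957.Contig8 had 899 (692 to 1190). The ratio was 766 (501 to 1237) for CL957.Contig2, 582 (497 to 687) for CL957.Contig4 and 560 (527 to 596) for CL957.Contig5. CL957.Contig1 had 163 (146 to 183), with an interval below those of the other 5 CPG-1 contigs. It was at 1990 FPKM in the female and 12.2 FPKM in the male library, and its 308 male fragments were second in the cluster to the 1049 of CL957.Contig5. Over all 8 contigs of the cluster, 964364 female and 1700 male fragments gave a ratio of 526 (502 to 552). The CPG-1 match outside the cluster, Unigene37672, was at 2527 FPKM in the female and 8.15 FPKM in the male library, a ratio of 310 (247 to 396).

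CPG-2 matches were the most numerous group. Their 14 unigenes summed to 26592 FPKM in the female and 159 FPKM in the male library, and ranged between 2.78 and 14081 FPKM in the female. Unigene1613 held the third rank of the female library at 14081 FPKM, against 42.7 FPKM in the male, a ratio of 330 (307 to 355). Unigene3521 was at 5003 FPKM in the female and 0.526 FPKM in the male library, where it had 14 fragments, a ratio of 9508 (5666 to 17391). Unigene42072 was at 1797 FPKM in the female and 0.173 FPKM in the male library, from 5 male fragments, with a ratio of 10386 (4450 to 31988). The intervals of Unigene3521 and Unigene42072 overlap each other and lie above that of every CL957 contig except CL957.Contig6, which had 1 male fragment. Unigene1623 (536 and 3.76 FPKM in female and male), Unigene21595 (499 and 2.37 FPKM) and Unigene22949 (490 and 3.28 FPKM) were alike in level, with ratios of 143, 211 and 149. Of the 14, 10 were higher in the female library under the size criterion and 4 did not reach it. Unigene23184, one of the 4, was at 66.5 FPKM in the female and 17.0 FPKM in the male library, a ratio of 3.92 (3.57 to 4.30).

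A chitin-binding name was carried by 7 of these 14 unigenes, whose Nr match was a Chitin binding Peritrophin-A domain protein of Brugia malayi. The peritrophin-A domain is a cysteine-rich module that binds chitin, first described in insect gut linings. All 7 also matched CPG-2, so no chitin-binding member was left outside the proteoglycan and enzyme classes. Together they summed to 4120 FPKM in the female and 89.4 FPKM in the male library, a ratio of summed FPKM of 46.1, against 322 for the other 7 CPG-2 matches (22472 FPKM in the female and 69.7 FPKM in the male library). Most of both sums came from Unigene1789, at 3844 FPKM in the female and 89.0 FPKM in the male library, a ratio of 43.2 (41.9 to 44.6). Its 3980 male fragments were the most of any member. Unigene41881 was at 183 FPKM in the female and 0.189 FPKM in the male library, a ratio of 971 (579 to 1776). The 5 contigs of cluster CL81, 4 of them 11256 to 11544 bases long, lay between 2.78 and 77.6 FPKM in the female and between 0.00962 and 0.171 FPKM in the male library, with 27 male fragments in all and a joint ratio of 401 (275 to 608). CL81.Contig1, CL81.Contig2 and CL81.Contig3, at 2.78 to 3.39 FPKM in the female library, were below the 5 FPKM that the size criterion asks for.

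**Figure D2:**
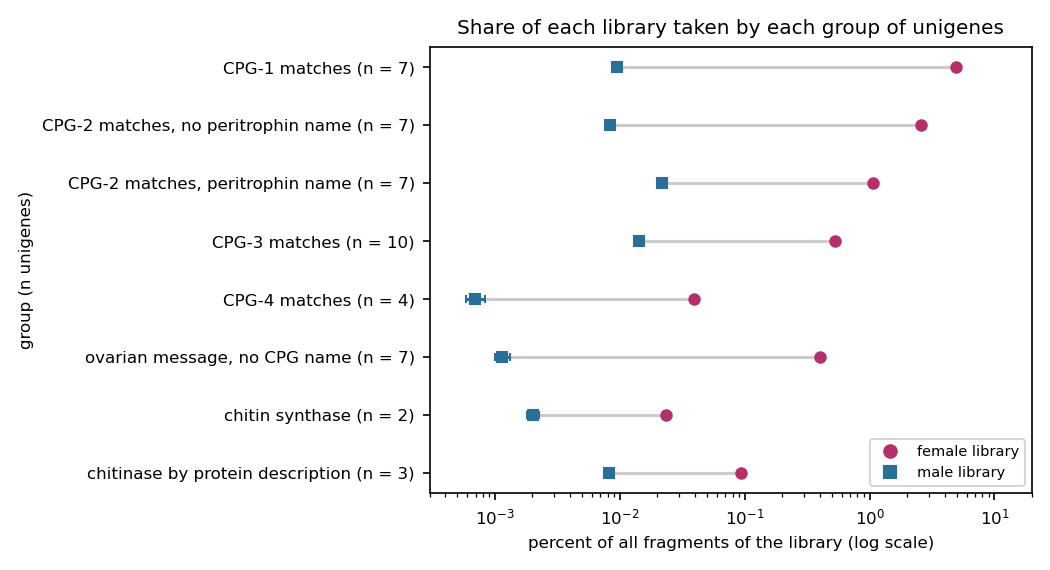
Percent of all fragments of each library taken by 8 groups of members, on a log axis, with circles for the female library, squares for the male library and bars for the Clopper-Pearson 95% interval; n is the number of unigenes. The share is higher in the female library for each group drawn, with the CPG-1 matches at 4.93% of female and 0.00957% of male fragments. The members higher in the male library under the size criterion, CL5033.Contig1, CL5033.Contig2 and CL5996.Contig5, are in no group drawn.

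CPG-3 matches were higher in the female library in all 10 unigenes, 9 of them under the size criterion, at a summed 7184 FPKM in the female and 202 FPKM in the male library. CL3498.Contig3 was at 1844 FPKM in the female and 3.82 FPKM in the male library, a ratio of 482 (364 to 654), and CL3498.Contig6 at 1018 FPKM in the female and 1.74 FPKM in the male library, a ratio of 583 (389 to 921). Unigene21161 and Unigene7057 formed a second level of difference. Unigene21161 had 1415 FPKM in the female and 15.4 FPKM in the male library, a ratio of 92.1 (80.7 to 106), and Unigene7057 had 1284 FPKM in the female and 14.7 FPKM in the male library, a ratio of 87.2 (76.2 to 100). Unigene23740 was the member with the highest level in the male worm, at 837 FPKM in the female and 162 FPKM in the male library, a ratio of 5.17 (4.93 to 5.43). Unigene42079 was at 147 FPKM in the female library with 0 male fragments, at least 737-fold higher in the female when the male count was set at 3 fragments. Unigene42078, at 144 FPKM in the female library, had 1 male fragment and a ratio of 2821 (506 to 111472). CL3498.Contig2 was at 11.9 FPKM in the female and 3.52 FPKM in the male library, a ratio of 3.37 (2.69 to 4.26), far below its cluster mates and short of the size criterion.

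CPG-4 matches were the least abundant proteoglycans, at a summed 348 FPKM in the female and 4.62 FPKM in the male library over 4 unigenes. CL2205.Contig3 had 129 FPKM in the female and 0.948 FPKM in the male library, and CL2205.Contig2 had 123 FPKM in the female and 0.703 FPKM in the male library. Unigene19029 was at 95.7 FPKM in the female and 1.77 FPKM in the male library, a ratio of 54.1 (40.3 to 74.3). CL2509.Contig17 went the other way, at 0.299 FPKM in the female and 1.20 FPKM in the male library, and was 4.0-fold higher in the male (2.19 to 7.82). In its cluster, 17 further contigs stood outside the authors' table, and the 18 together had 49 female and 198 male fragments.

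The name ovarian message protein also covered 7 unigenes with no chondroitin proteoglycan match. Unigene8349 was the most abundant of them, ranked 7 in the female library at 7086 FPKM, against 6.14 FPKM in the male, a ratio of 1155 (848 to 1617). Unigene1455 was at 2711 FPKM in the female and 4.31 FPKM in the male library, a ratio of 629 (415 to 1004). Both are short, at 355 and 278 bases. CL957.Contig7 and CL957.Contig6, whose Swiss-Prot match was a C-type lectin domain protein, were at 1985 and 46.3 FPKM in the female and 2.20 and 0.144 FPKM in the male library. The other 3, in cluster CL2865, were higher in the male library and are given with the members of that direction.

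Chitin synthase, the enzyme that polymerises N-acetylglucosamine into chitin, was higher in the female worm, by less than most proteoglycans and at lower levels. Unigene15768 was at 62.1 FPKM in the female and 4.94 FPKM in the male library, a ratio of 12.6 (10.7 to 14.9). CL1412.Contig1 was at 46.4 FPKM in the female and 4.23 FPKM in the male library, a ratio of 11.0 (9.53 to 12.6). Both passed the size criterion, and their intervals overlapped each other. The names do not say whether they are parts of 1 gene or of 2 genes, or whether either serves the eggshell. Their summed ratio of 11.8 stood below the 187 of the proteoglycans, and the fragment ratios of the classes, 11.6 (10.5 to 13.0) and 170 (167 to 174), had intervals that did not overlap.

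Enzymes that make the sugar donor of chitin, UDP-N-acetylglucosamine, went the same way at each of the 4 steps listed after fructose-6-phosphate. The list was matched by enzyme names, and its 5 unigenes for these steps were all higher in the female library, 4 under the size criterion, at a summed 343 FPKM in the female and 32.4 FPKM in the male library. Their median log2 ratio was 3.36, against the -1.05 over the table. Glutamine-fructose-6-phosphate aminotransferase (CL5704.Contig1), which commits sugar to this route, was at 29.8 FPKM in the female and 2.01 FPKM in the male library, a ratio of 14.8 (12.3 to 18.2). Glucosamine 6-phosphate N-acetyltransferase (Unigene21490) was at 86.0 FPKM in the female and 17.2 FPKM in the male library, a ratio of 4.99 (4.62 to 5.40). Phosphoacetylglucosamine mutase (Unigene14543) was at 133 FPKM in the female and 11.7 FPKM in the male library, a ratio of 11.4 (10.5 to 12.5). UDP-N-acetylglucosamine pyrophosphorylase, which makes the donor itself, had the largest difference, with CL3770.Contig2 at 90.3 FPKM in the female and 0.795 FPKM in the male library, a ratio of 114 (84.2 to 157). Its second contig, CL3770.Contig4, was at 3.78 FPKM in the female and 0.740 FPKM in the male library.

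The steps before fructose-6-phosphate had copies on both sides. Hexokinase, which phosphorylates glucose, had 3 unigenes higher in the female and 13 in the male library, with Unigene11139 at 143 FPKM in the female and 4.61 FPKM in the male, and Unigene21949 at 7.75 FPKM in the female and 396 FPKM in the male. Trehalase, which splits the disaccharide trehalose, had 6 unigenes higher in the female and 8 in the male library. By the size criterion, 2 hexokinases and 3 trehalases were higher in the female library, and 3 of each in the male library. The same criterion called 7.84% of the annotated table in the female and 14.8% in the male direction. No unigene named glucose-6-phosphate isomerase was in the annotated table.

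**Figure D3:**
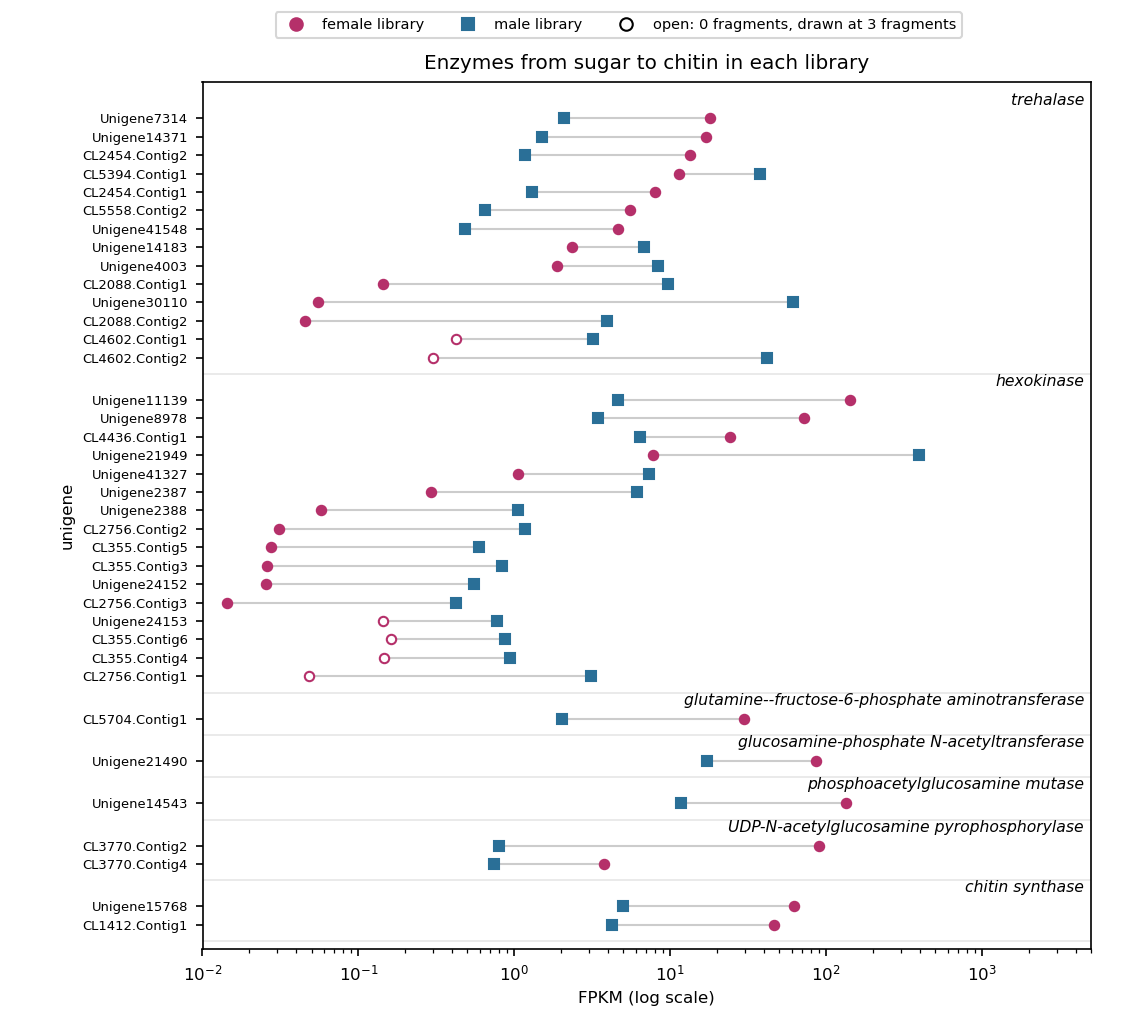
FPKM of each unigene matching an enzyme on the route from trehalose and glucose to chitin, on a log axis, with circles for the female library and squares for the male library; open symbols had 0 fragments and are drawn at 3 fragments. Trehalase and hexokinase unigenes lie on both sides, while the 5 unigenes of the later steps and the 2 chitin synthases are all higher in the female library.

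Chitinase matches were mixed in kind and direction. Unigene14236, a match to the C. elegans chitinase-like protein C25A8.4, was at 124 FPKM in the female and 17.1 FPKM in the male library, a ratio of 7.27 (6.88 to 7.68). Unigene7108, a glycosyl hydrolase of family 18 (the family of chitinases) that matched the mammalian enzyme chitotriosidase, was at 12.8 FPKM in the female and 3.59 FPKM in the male library, a ratio of 3.56 (2.52 to 5.12), short of the size criterion. CL2498.Contig2 was named chitinase from a match to the protist Trichomonas vaginalis, while its Swiss-Prot match was the C. elegans protein location of vulva defective 1 and its KEGG name was intestinal mucin-2. It was at 816 FPKM in the female and 0.129 FPKM in the male library, where it had 1 fragment, a ratio of 6305 (1131 to 249080). The other contig of its cluster, CL2498.Contig1, carried no chitin name and was at 4777 FPKM in the female and 0.405 FPKM in the male library. The 5 matches summed to 953 FPKM in the female and 40.9 FPKM in the male library. Without CL2498.Contig2 the sums were 137 FPKM in the female and 40.8 FPKM in the male library, and the ratio of summed FPKM was 3.36 in place of 23.3. A list of chitin breakdown enzymes added 1 unigene that was not a member, the beta-hexosaminidase match CL796.Contig2. It was at 0.145 FPKM in the female, from 3 fragments, and 2.03 FPKM in the male library. The male over female ratio was 14.0 (4.45 to 70.9), short of the size criterion. No unigene of the annotated table was named chitobiase or chitin deacetylase.

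The name chitinase in KEGG did not separate enzymes from eggshell proteins. It was carried by 9 of the 42 proteoglycan matches, among them 7 CL957 contigs, Unigene3521 and Unigene42072, at a summed 45471 FPKM in the female and 70.7 FPKM in the male library. It was also the sole reason for counting CL5033.Contig1 and CL5033.Contig2, whose protein matches were a C. elegans protein C03B8.3 and a vertebrate transmembrane protein 65. Both had 0 female fragments, against 6.83 and 13.3 FPKM in the male library, which with the female count set at 3 fragments made them at least 49.9-fold (Contig1) and 89.1-fold (Contig2) higher in the male. A further odd name, valyl-tRNA synthetase, stood in KEGG for 8 proteoglycan matches, including the 7 with a peritrophin-A name.

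Members higher in the male library numbered 7, with at most 34.3 FPKM there. The 3 under the size criterion were both CL5033 contigs and CL5996.Contig5, which matched an eggshell protein of the blood fluke Schistosoma japonicum in Swiss-Prot and a gorilla lipase in Nr. CL5996.Contig5 had 0 female fragments and 34.3 FPKM in the male library, at least 143-fold higher in the male. The 4 other contigs of its cluster had 5 female fragments in all and no eggshell match. None of the 42 proteoglycan matches reached the size criterion in the male direction. The 4 that were higher in the male library without reaching it were CL2509.Contig17 and 3 contigs of cluster CL2865. CL2865.Contig3 was at 1.64 FPKM in the female and 7.44 FPKM in the male library and was 4.55-fold higher in the male (2.69 to 8.08). CL2865.Contig6 was at 0.232 FPKM in the female and 0.998 FPKM in the male library, a male over female ratio of 4.31 (2.04 to 10.2). CL2865.Contig5 was at 0.0468 FPKM in the female, from 1 fragment, and 1.11 FPKM in the male library, a male over female ratio of 23.7 (3.83 to 978).

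Cluster CL2865 also held a match to CBD-1, the chitin-binding protein of the C. elegans eggshell, which the choice of members by name had not included. CL2865.Contig7 was at 0.503 FPKM in the female and 5.07 FPKM in the male library, 10.1-fold higher in the male (6.95 to 15.1), and passed the size criterion. The whole cluster of 7 contigs had 87 female and 472 male fragments. In the other direction, the unnamed CL3498.Contig1 was at 634 FPKM in the female and 1.02 FPKM in the male library, a ratio of 623 (328 to 1364). CL2205.Contig1 was at 349 FPKM in the female and 2.93 FPKM in the male library, a ratio of 119 (89.4 to 162). Each stood on the same side as the members of its cluster that passed the size criterion.

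Enzymes that build the chondroitin chains on the core proteins differed less than the core proteins. The chain enzymes by name were 6 unigenes, 5 higher in the female and 1 in the male library. They summed to 50.2 FPKM in the female and 23.6 FPKM in the male library. The size criterion called 0 of them in either direction. Over the annotated table it called 7.84% in the female and 14.8% in the male direction. The xylosyltransferase SQV-6 (CL5027.Contig2), which attaches the first sugar of the chain, was at 21.4 FPKM in the female and 5.12 FPKM in the male library, a ratio of 4.17 (3.63 to 4.81). The galactosyltransferase SQV-3 (CL4180.Contig1), which adds the next sugar, was at 19.3 FPKM in the female and 9.39 FPKM in the male library, a ratio of 2.06 (1.79 to 2.38). A chondroitin synthase match (CL867.Contig2), which extends the chain, was at 5.16 FPKM in the female and 2.44 FPKM in the male library, a ratio of 2.12 (1.69 to 2.66). UDP-glucuronate decarboxylase (CL3306.Contig5), which makes the donor for the first sugar, was at 2.18 FPKM in the female and 5.92 FPKM in the male library and 2.71-fold higher in the male (2.29 to 3.22). The list as written also took in 16 glucuronosyltransferases of the kind that conjugates small molecules, 11 higher in the female and 5 in the male library, 3 under the size criterion in the female direction.

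The list for egg activation and the vitelline layer of C. elegans took in 9 unigenes, 7 of them through a low-density lipoprotein receptor name alone. The others were matches to the kinase MBK-2 and to CBD-1. Of the 9, 7 were higher in the female and 2 in the male library. By the size criterion 2 were higher in the female and 1, the CBD-1 match, in the male library. Over the annotated table it called 7.84% in the female and 14.8% in the male direction. The list median was 1.29, against -1.05 over the table. These counts and the median describe mainly receptor names. In C. elegans the receptors EGG-1 and EGG-2 on the oocyte carry low-density lipoprotein receptor repeats, and 7 unigenes had a receptor of this kind as a name. Unigene2470 was at 193 FPKM in the female and 0.901 FPKM in the male library, a ratio of 214 (153 to 309). Unigene4978 was at 192 FPKM in the female and 11.7 FPKM in the male library, a ratio of 16.4 (15.3 to 17.6). The other 5 did not reach the size criterion, 4 of them higher in the female library, at 2.85 to 8.62 FPKM in the female and 0 to 4.05 FPKM in the male. CL5858.Contig1 went the other way, at 0.00687 FPKM in the female, from 1 fragment, and 2.50 FPKM in the male library, and was 363-fold higher in the male (64.7 to 14385). The kinase MBK-2 (Unigene21440), which acts at the switch from oocyte to embryo, was at 28.6 FPKM in the female and 13.1 FPKM in the male library, a ratio of 2.18 (2.03 to 2.35). No unigene of the annotated table was named after egg-1 to egg-6 or perm-1 to perm-5, and unigenes outside it carry no name.

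Abundance in the female library was concentrated in a few members. CL957.Contig5 alone held 33.2% of the female fragments of the members, and 5 unigenes held 69.5%. Of the 50 members, 3 were among the top 10, 14 among the top 50 and 17 among the top 100 unigenes of the female library by FPKM. In the male library 0 were among the top 100, and the highest was Unigene23740 at rank 667. Unigene1789 held the most male fragments, at 30.8% of those of the members, and together with Unigene23740 it held 46.2%. Among the 33 proteoglycan matches that passed the size criterion in the female direction, the most abundant included, the order was partly shared. Their female and male log2(FPKM + 1) had a Spearman coefficient of 0.715. The 33 were selected by these same values and include contigs of shared clusters, so the coefficient is a description only. A level of 100 FPKM or more was reached by 31 members in the female and by 1 member in the male library.

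Vitellogenin Unigene14425, close in female level to Unigene1613, had a ratio of 49051 (34154 to 73241), against 13.7 (13.4 to 14.0) for Unigene4105. The ratio of Unigene14425 lay above the ratio of every member with a male fragment, although the upper limits of CL2498.Contig2 and Unigene42078, with 1 male fragment each, lie higher. The members did not share 1 ratio, since the counting intervals of Unigene1789 (41.9 to 44.6), CL957.Contig5 (527 to 596) and Unigene3521 (5666 to 17391) do not overlap.

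**Figure D4:**
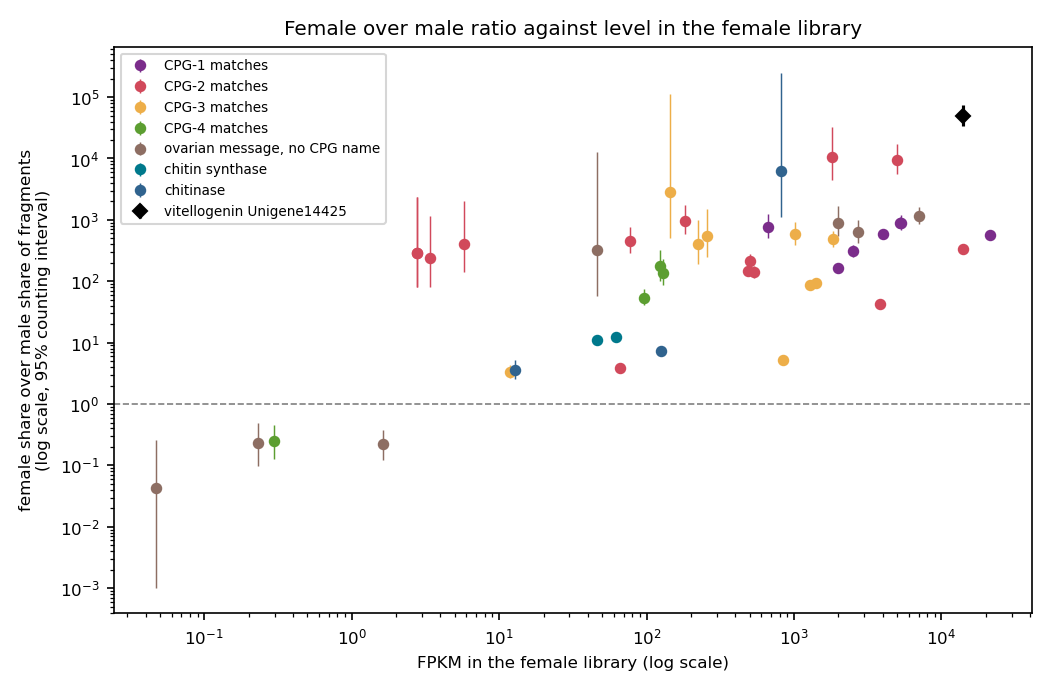
Ratio of female over male share of fragments against FPKM in the female library, both on log axes, for the 46 members with fragments in both libraries and for vitellogenin Unigene14425 (diamond); bars are 95% counting intervals, and the dashed line is a ratio of 1. Ratios of members span 0.0422 to 10386, and this vitellogenin lies above them at 49051.

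The gene table of an annotated T. canis assembly (Toxocara_canis_adult_r1.0) holds 16 genes with a symbol from cpg-1 to cpg-4 on 14 scaffolds, with 2 genes for cpg-1, 6 for cpg-2, 6 for cpg-3 and 2 for cpg-4. The 35 unigenes matching these names in the authors' table numbered 7, 14, 10 and 4. Unigenes outside that table carry no name, so further matches could not be counted. The unigenes carry no link to those genes in the files, so which contigs belong to 1 gene was not determined. Of the 50 members, 29 were contigs of 10 clusters and 21 were single unigenes. A nematode was the source of the Nr match in 48, most often Ascaris suum, with 20.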

How the data were processed

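The labels' protocols state that total RNA of the whole body of 1 male and 1 female adult was extracted with Trizol, and that polyadenylated RNA was fragmented, reverse-transcribed with random primers, selected by size in a gel and enriched by PCR. For each library the authors deposited, per the file headers, whole fragment counts by unigene with unigene lengths, and FPKM values. A comparison table that the authors deposited adds the annotation, log2 ratios (female over male), p-values and FDR. The deposited log2 ratios and p-values were not used beyond checking that every unigene there has an FDR under 0.001 and a ratio of at least 1 in size. The deposited hit scores and expect values were not used. Assembler, aligner, counter and build: not given in the sources used here. Counts were the same in both kinds of table, and FPKM recomputed from counts differed by at most 5.0e-05. A unigene missing from a library's table was taken as 0 fragments. The suffix _All was left off unigene names.

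Ratios are of library shares, with an exact Clopper-Pearson 95% interval from the fragment counts. For a fold value, a count of 0 was set at 3 fragments per library. Medians used unigenes whose mean reached 1 FPKM and log2((female FPKM + 1)/(male FPKM + 1)). Medians are descriptions. Members and lists were chosen with earlier results of these data known. Classes were read from the Nr and Swiss-Prot text first and from the KEGG name where neither gave one, a choice made after 9 proteoglycan matches were seen to carry the KEGG name chitinase. Named were up to 8 members per class with the highest mean FPKM, the outermost in each direction and those higher in the male library under the size criterion, and further members were named after their values were seen. The interval arithmetic and the size criterion were tested on simulated counts. The TMM factors came from edgeR 4.0.16 in R 4.3.3 and all else from Python 3.11.15 with pandas 2.3.3, SciPy 1.17.1, NumPy 2.4.6 and matplotlib 3.10.9. Alternatives covered the limits of the size criterion, the pseudocount, the scaling, the filter on low values and the choice of members.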

Additional observations from a re-analysis of the deposited data

How the results depend on the processing

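Of 71 alternative values, 37 stayed within the interval of the main value (or within 1.5 times a main count) and 34 moved beyond it. No median or ratio changed direction. Counts could not be scored for a change of direction. Each of the 50 members and the 81 unigenes of the pathway lists stayed on its side under all 3 other scalings. Of those 81, 14 on the list of chitin breakdown were also members. These shifted every log2 ratio by 0.15 (library totals without the members), -0.42 (median-ratio size factors) and -0.41 (TMM). That none changed side was fixed in advance and tests nothing. The authors' table holds no unigene with an absolute log2 ratio below 1, so shifts this small could not reverse any. The count of 37 members higher in the female library was 23 with the Nr description alone. The count of 3 in the male direction was 1 with a minimum of 20 FPKM, 0 with Nr alone, 1 with Swiss-Prot alone and 0 without members named by KEGG or an eggshell name alone, a setting chosen after seeing the data. The median log2 ratio of 6.82 was 7.34 with a pseudocount of 0.1 FPKM. In the order library totals without the members, median-ratio factors and TMM, the ratio of summed FPKM was 207, 139 and 140 for proteoglycans (187 in the main setting), 25.7, 17.4 and 17.5 for chitinases (23.3), 51.0, 34.4 and 34.6 for the peritrophin-named unigenes (46.1) and 177, 119 and 120.3 for all members (160.1). For chitin synthases (11.8) it was 8.83 with median-ratio factors and 8.89 with TMM. With Nr alone it was 309 for proteoglycans, 6305 for chitinases (CL2498.Contig2 alone) and 301 for all members. With Swiss-Prot alone these were 169.6, 7.27 and 152, and no chitin synthase was left. With 1 unigene per cluster they were 157, 27.9 and 134. With nematode Nr hits alone the ratio was 3.36 for chitinases and 169 for all members. Alternatives added after seeing the data gave 3.36 for chitinases without CL2498.Contig2, and 105 for proteoglycans and 416 for chitinases when the class was read from all text at once. These moves follow from which unigenes enter each sum or from the scaling itself. No paired analysis was possible because each sex has 1 library. Depth limits low values: on a unigene of 1385 bases (Unigene19029), 3 fragments correspond to 0.109 FPKM in the female and 0.118 FPKM in the male library.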
